A study of Arabidopsis thaliana with 6 samples.

Results

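The genes described here are AT1G11490, AT1G11500, AT1G67860, AT1G67870 and AT1G10380, 5 loci of chromosome 1 of Arabidopsis thaliana whose signal was far lower in apl than in wildtype and which lie beside, or close to, another gene with a lower signal. They are 5 of 16541 genes that could be named on the arrays, and each had 1 probe set paired with it alone. The members were chosen by the difference between wildtype and apl, so that difference is given for them as a description and supports nothing by itself. The annotation used here gives the 5 genes no name beyond their locus codes, and no role is stated for them.

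Transcripts were measured on 6 single-colour arrays, 3 of wildtype Col-0, the standard laboratory accession, and 3 of the apl mutant, whose allele and background accession the labels do not give. Cotyledons of 6-day-old seedlings, grown in liquid MS medium at 22 ºC under continuous light, were cultured in both groups with the synthetic auxin 2,4-D at 1.25 mg/L, the cytokinin kinetin at 0.25 mg/L and bikinin, an inhibitor of GSK3-like kinases, at 10 µM. Both groups were collected after 72 h, with no uninduced group, so the comparison shows which transcripts differ between apl and wildtype in the induced tissue only. As the background of apl is not given, loss of APL and any other difference between the lines cannot be told apart.

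APL is a MYB-type transcription factor of the MYB-CC family that is needed for phloem identity, in sieve elements and companion cells, and its loss lets xylem-like cells form where phloem would be. In the VISUAL culture, cells of cut cotyledons are induced to become xylem and phloem cells. Genes that lie side by side in a plant genome are as a rule transcribed separately, each from its own promoter. Some neighbours are nonetheless expressed alike, among them tandem copies of a gene.

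The deposited values are log2 signals, whose median per array was 6.05 to 6.25. The 25th percentile per array was 3.79 to 4.03, and below about that level a signal cannot be told from background, because no detection call comes with the values. Across all probe sets, 2 arrays of the same group had a Pearson's r of 0.969 to 0.977, and 2 arrays of different groups one of 0.949 to 0.974. Arrays with the same replicate number also deviated from their group means together, with r of 0.40 to 0.45. No singly named probe set stands for APL, so its own level is not analysed here. Of 23 marker genes for leaf, phloem, companion, xylem and epidermal cells and for reference, 15 were measured and 0 were called (limma). Of all named genes, 0.816% were called lower. Differences of the 15 ran from -2.06 for the xylem gene IRX15 to 2.25 for SWEET11. The lack of calls therefore does not show that the cell types were unchanged. Of 4 photosynthesis genes, which mark the labelled cotyledon tissue, 2 were measured, RCA and LHCB4.1, and both were bright in both groups, at means of 8.90 to 10.2.

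AT1G11490 and AT1G11500 are the 1 pair among the 5 genes that are direct neighbours in the RefSeq gene order. AT1G11490 had log2 signals of 8.10, 8.23 and 7.53 in wildtype replicates 1, 2 and 3, and of 3.66, 4.75 and 2.71 in apl replicates 1, 2 and 3. The groups were far apart, and the apl arrays were spread more widely, with an SD of 1.02 against 0.37 in wildtype (n = 3 each). The apl mean, 3.71, was below the 3.79 to 4.03 of the 25th percentiles, with apl replicates 1, 2 and 3 at the 20.2th, 34.0th and 11.2th percentile of their arrays. The difference was -4.25 (SE 0.50), a 19.0-fold lower signal, with an apl level that cannot be told from background in replicates 1 and 3.

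AT1G11500 had log2 signals of 10.3, 10.4 and 9.47 in wildtype and of 4.50, 6.00 and 3.42 in apl. In apl replicate 3 it lay at the 20.5th percentile of the array, where a signal cannot be told from background. Its order of arrays was the same as for its neighbour in both groups: replicate 2 was highest and replicate 3 lowest. The difference was -5.41 (SE 0.63), or 42.6-fold lower in signal, and it depended on single arrays: leaving out apl replicate 2 made it 68.3-fold, and leaving out apl replicate 3 made it 27.9-fold.

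AT1G67860 had log2 signals of 9.24, 8.42 and 8.42 in wildtype and of 3.42, 3.21 and 3.64 in apl. All 3 apl arrays lay under the 25th percentile of their array, so only wildtype held a signal that stands clear of background. The difference was -5.27 (SE 0.28), or 38.5-fold lower in signal.

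AT1G67870 had log2 signals of 11.2, 10.2 and 9.59 in wildtype and of 6.56, 5.33 and 5.66 in apl. Its apl arrays lay between the 40.4th and 53.5th percentile of all probe sets, so its signal was reduced there and not lost. The difference was -4.47 (SE 0.47), or 22.1-fold lower in signal.

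AT1G10380 had log2 signals of 7.55, 7.54 and 7.35 in wildtype and of 3.22, 3.11 and 3.59 in apl. The replicates were close, with SDs of 0.11 and 0.25, and all 3 apl arrays lay under the 25th percentile. The difference was -4.17 (SE 0.20), or 18.0-fold lower in signal.

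**Figure D1:**
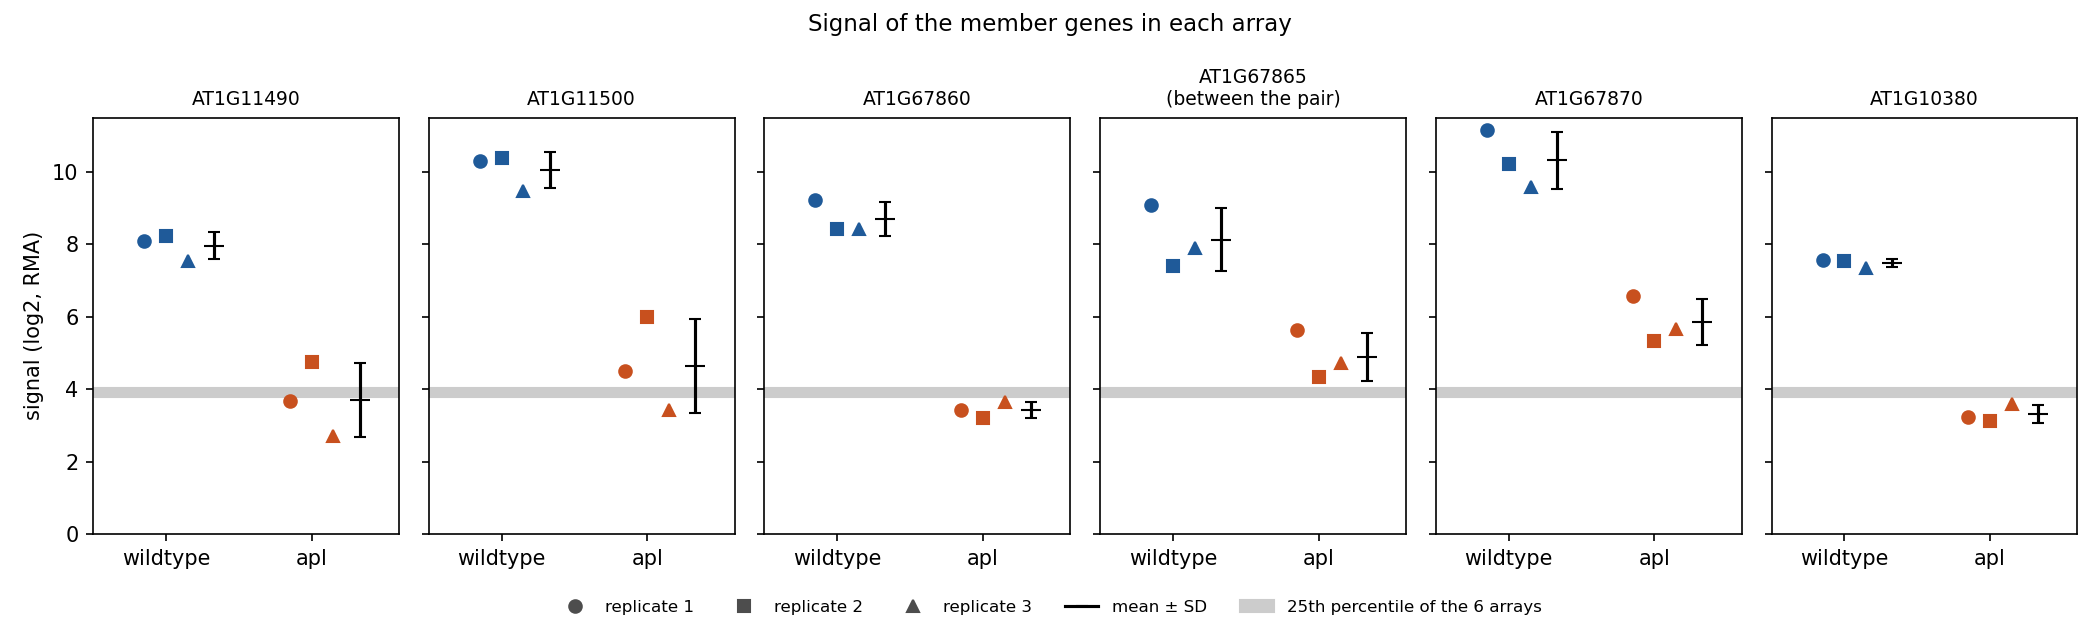
Signal on the log2 scale (y axis) of the 5 genes and of AT1G67865, which lies between AT1G67860 and AT1G67870, in wildtype and apl (x axis). Points are arrays, with 1 marker shape per replicate number; bars are the mean ± SD (n = 3), and the grey band spans the 25th percentiles of the 6 arrays, 3.79 to 4.03. The groups are apart in every panel, and the apl arrays of AT1G67860 and AT1G10380 lie under the band.

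In the fit over all probe sets (limma, Benjamini-Hochberg adjusted p under 0.05), 5 of 5 were called lower, where 0.816% of named genes and 0.526% of all probe sets were, and this count is the choice of the members and nothing more. Likewise, the groups did not overlap for any of the 5, as for 6.6% of named genes with apl below. Their adjusted p-values in limma were 0.00134 to 0.0228 and, with the replicate block, 0.0139 to 0.0198. Among the 135 named genes called lower the size of the fall placed AT1G11500 at rank 13, AT1G67860 at 18, AT1G67870 at 40, AT1G11490 at 48 and AT1G10380 at 50, and their median of -4.47 compares with -3.37 over the 135. At the threshold itself, AT2G42960 was just inside, with a difference of -1.50 (adjusted p 0.0496, limma), and AT5G03795 just outside, with -3.88 (adjusted p 0.0508, limma). In whole cotyledons, fewer cells that make these transcripts and less of them in each cell cannot be told apart. With 1 array left out, the calls of AT1G67860 and AT1G10380 held in all 6 cases. Those of AT1G11490 and AT1G11500 ended without apl replicate 1 or without any 1 of the wildtype arrays, and that of AT1G67870 ended without apl replicate 1, wildtype replicate 1 or wildtype replicate 2, which left 2 to 3 members called.

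Before AT1G11490 and AT1G11500, the lower signal did not extend to the nearest measured gene. This gene, AT1G11480, was bright in both groups, at means of 10.9 and 10.8, and differed by -0.07 (SE 0.19). AT1G11510, the direct neighbour on the other side, had a highest signal of 3.46, which is below the 3.79 to 4.03 of the 25th percentiles, with means of 2.91 and 2.68, and differed by -0.23 (SE 0.32). At that level its signal cannot be told from background, so a fall there would not be clear. Of the 10 measured genes flanking the pair, 5 on each side, 0 were called by limma. An unadjusted p under 0.05 (limma) was seen for 4, of which AT1G11540 was higher in apl, at 0.62. The share of all genes at that level was not counted, so the 4 are not read as an excess near the pair.

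NTL (AT1G11570), an NTF2-like gene 9 steps beyond AT1G11500 in the gene order, was the flanking gene nearest to the pair in its size and spread. Its log2 signals were 8.27, 8.74 and 7.59 in wildtype and 4.00, 6.15 and 2.71 in apl. The groups did not overlap, but the wide spread of apl left it uncalled, at -3.91 (SE 0.81, limma adjusted p 0.135, or 0.0512 with the replicate block). It was called without apl replicate 2, at -4.85 (limma adjusted p 0.0126). Without apl replicate 3 it was -3.13 (limma adjusted p 0.223), and without any 1 of the other 4 arrays the limma adjusted p was 0.246 to 0.458. AT1G11560, the gene next to NTL, differed by -1.69 (SE 0.57), with overlapping groups, and was called with the replicate block but not in the main model (limma adjusted p 0.0302, against 0.426 without it). Between the pair and these 2 genes, AT1G11510, AT1G11520 and AT1G11540 differed by -0.23, -0.48 and 0.62, none of them called.

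AT1G67860 and AT1G67870 are not direct neighbours: AT1G67865 lies between them. Its log2 signals were 9.08, 7.39 and 7.90 in wildtype and 5.63, 4.33 and 4.72 in apl, so that the groups did not overlap there either. The difference was -3.23 (SE 0.50), or 9.38-fold lower in signal, with a limma adjusted p of 0.0542, which is just past the threshold. The replicate block (adjusted p 0.0139, limma), quantile normalization (0.0463), median centring (0.0365), leaving out dim probe sets (0.0427) and a variance trend with robust prior (0.0188) each brought it under 0.05. With any 1 of the 6 arrays left out it was not called (limma adjusted p 0.105 to 0.160). The stretch of lower signal thus covered 3 genes in a row in level, of which 2 were called.

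In the nearest measured gene on either side of these 3 genes the difference was small. AT1G67880, which follows AT1G67870 directly, had means of 6.98 in wildtype and 7.06 in apl, a difference of 0.08 (SE 0.25). AT1G67850, the nearest measured gene before AT1G67860, differed by -0.34 (SE 0.25). AT1G67855 and AT1G67856, which lie between AT1G67850 and AT1G67860, were not measured, so where the lower stretch begins is not known. Of the 10 flanking genes, AT1G67790 alone was called, 10 steps before AT1G67860, with signals of 10.7, 10.6 and 10.2 in wildtype and 6.38, 7.25 and 4.84 in apl and a difference of -4.34 (SE 0.57, limma adjusted p 0.0302). That gene has 2 probe sets, and they disagree: the other one lay at 7.54 to 8.22 in the 6 arrays and differed by only -0.25 (limma adjusted p 0.791).

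AT1G10380 had a measured direct neighbour on 1 side only. This gene, AT1G10385, differed by 0.27 (SE 0.18), with means of 4.50 and 4.77. On the other side lies ERD9, a glutathione S-transferase gene with no singly named probe set, and beyond it GSTU18, a glutathione S-transferase of the tau class. GSTU18 had log2 signals of 7.49, 8.14 and 7.70 in wildtype and of 5.45, 5.78 and 5.56 in apl. It stayed above the 25th percentile in apl and fell by 2.18 on the log2 scale (SE 0.23, limma adjusted p 0.0156), or 4.52-fold, against 18.0-fold for AT1G10380, and whether the 2 falls differ was not tested. The other 9 of the 10 flanking genes lay between -0.17 and 0.45 and were not called.

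**Figure D2:**
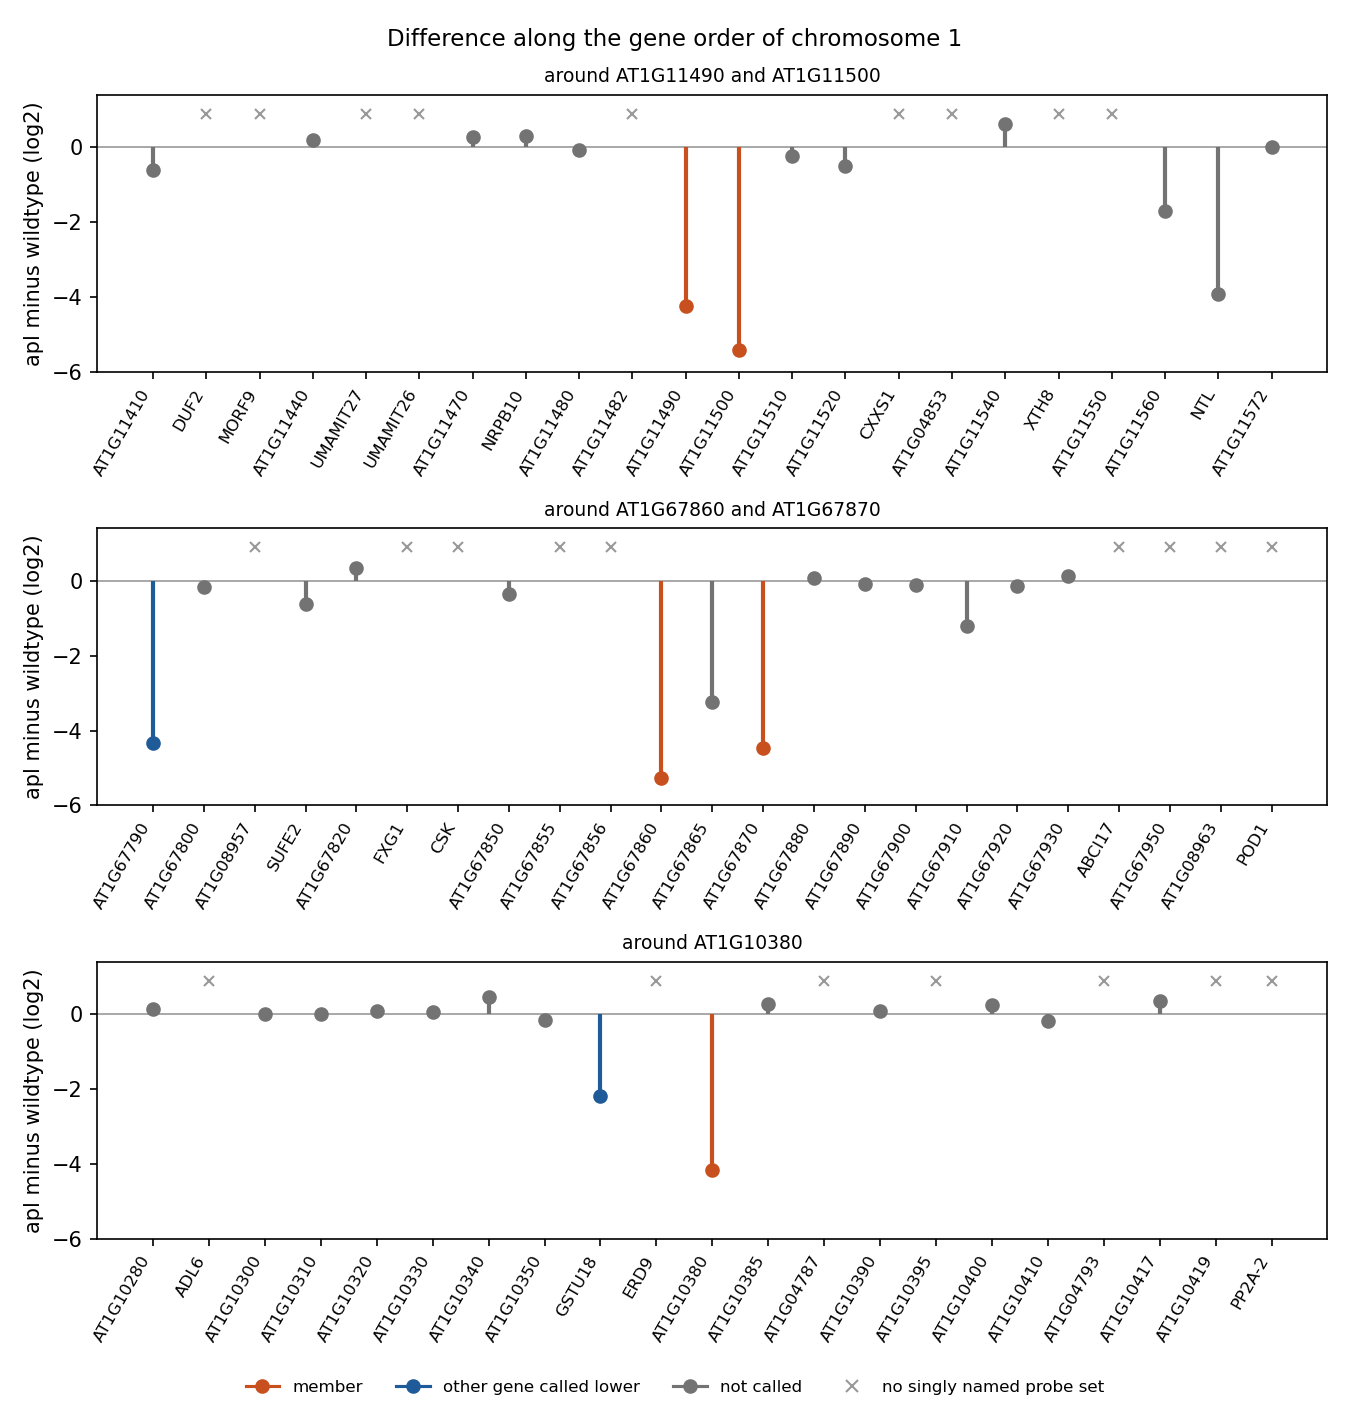
Difference in log2 signal, apl minus wildtype (y axis), for the genes around the members in the RefSeq gene order of chromosome 1 (x axis, 10 genes on each side, equal steps). Members, other genes called lower (limma adjusted p under 0.05) and uncalled genes differ in colour, and crosses mark genes with no singly named probe set. Of the direct neighbours of the lower stretches, AT1G11510, AT1G67880 and AT1G10385 are measured and lie near 0, AT1G11510 with signals at background level in both groups, while NTL, AT1G67790 and GSTU18 stand apart from their surroundings.

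Over the 3 loci, 2 of 30 flanking genes were called lower and 0 higher (limma), where 0.816% of all named genes were called lower. The median difference of the 30 was -0.10, against 0.08 over all named genes. An unadjusted p under 0.05 (limma) was seen for 7 of the 30, with AT1G11540 among them higher in apl. The share of all named genes at that level was not counted, so the 7 are not read as an excess near the members. The 7 include AT1G67790 and GSTU18. A lower gene beside a member is what the members were chosen for, so the 2, AT1G67790 and GSTU18, add no evidence that lower genes cluster. Without apl replicate 1, or without any 1 wildtype array, 0 of the 30 were called.

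The 2 loci with a pair differed in how their arrays varied within a group. A pooled correlation over the 6 arrays is not given, since groups this far apart make it high for any 2 of these genes. Deviations from the group means were compared in its place, as a description of 6 arrays in which same-numbered arrays are not independent. All apl arrays of AT1G67860 and AT1G10380, and apl replicates 1 and 3 of AT1G11490, held signals that cannot be told from background. The same holds for apl replicate 3 of AT1G11500. An r that includes these arrays therefore describes signal and cannot be read as likeness of transcript levels. For AT1G11490 the deviations in apl were -0.04, 1.04 and -0.99, and for AT1G11500 they were -0.14, 1.36 and -1.22. They shared their sign in 6 of 6 arrays, with an r of 0.998. For AT1G67860 and AT1G67870 the sign was shared in 5 of 6 arrays, with an r of 0.72, and for AT1G67865 and AT1G67870 in 6 of 6, with an r of 0.85. The largest deviations of AT1G67860 and AT1G67870 were in wildtype replicate 1, at 0.54 and 0.84. Across the loci, r was -0.28 for AT1G11490 with AT1G67860 and 0.01 with AT1G67870, -0.67 for AT1G11490 with AT1G10380 and 0.57 for AT1G67860 with AT1G10380. It was high between AT1G67790, of the AT1G67860 region, and the other pair, at 0.97 with AT1G11490 and 0.95 with AT1G11500. Within the third locus it was -0.12 for AT1G10380 with GSTU18.

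**Figure D3:**
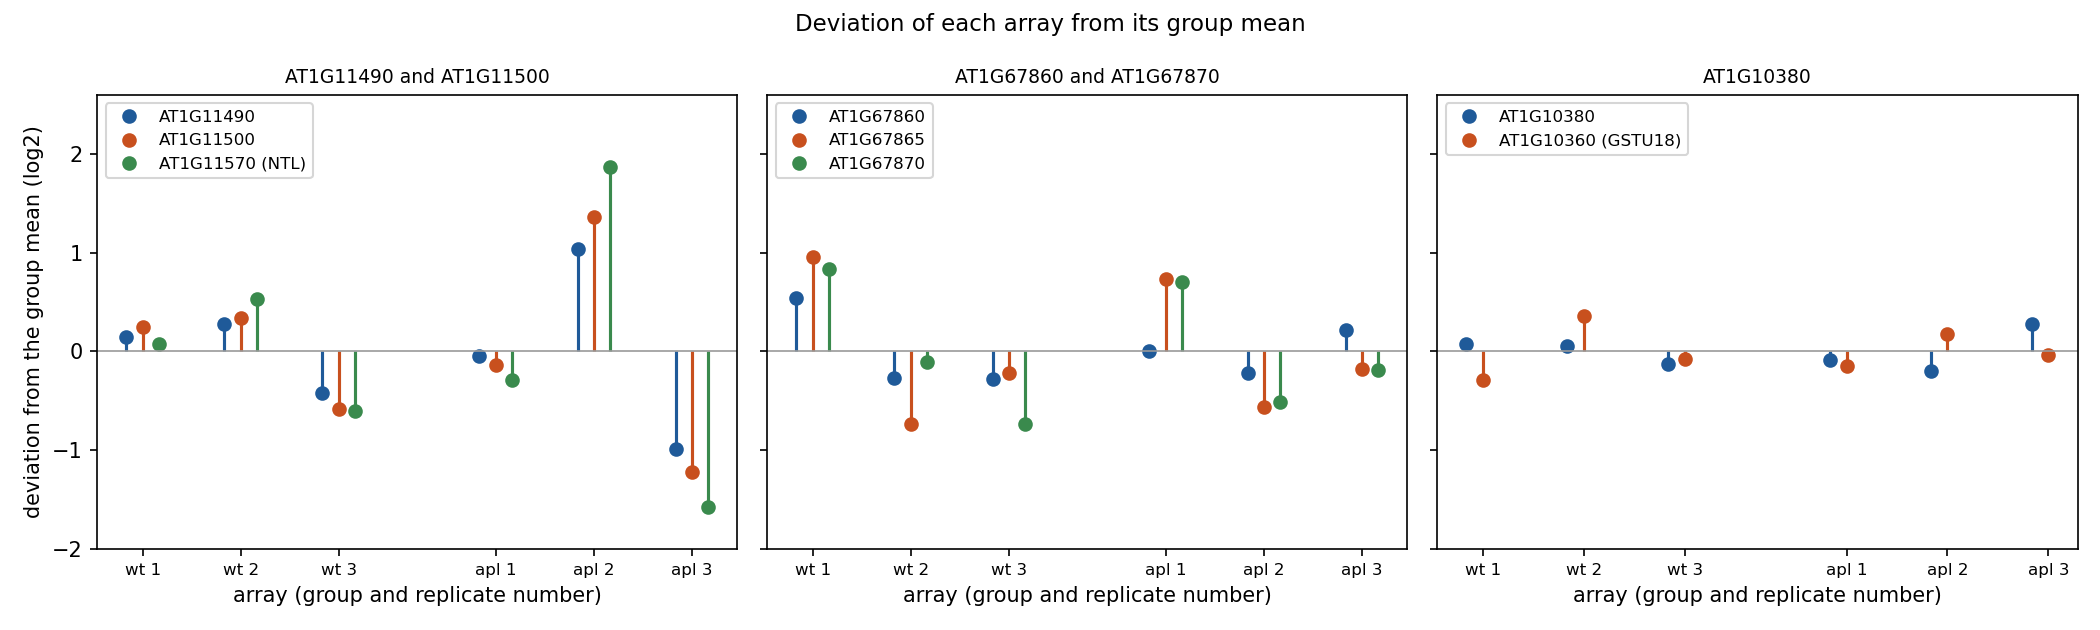
Deviation of each array from the mean of its group on the log2 scale (y axis), for wildtype (wt) and apl replicates 1 to 3 (x axis, replicates have no order). In the AT1G11490 panel apl replicate 2 is above and apl replicate 3 below the mean for all 3 genes, by up to 1.87 for NTL. In the AT1G67860 panel wildtype replicate 1 is above it for all 3, and the deviations of AT1G10380 and GSTU18 are small.

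The likeness of AT1G11490 and AT1G11500 was shared by many lower genes elsewhere. The highest apl array was replicate 2 for 96 of the 135 lower genes (71.1%) and the lowest was replicate 3 for 84 of them (62.2%), as for this pair. Over all 16541 named genes these shares were 36.0% and 46.6%. For AT1G67860, AT1G67870 and AT1G10380 apl replicate 2 was instead the lowest, as for 19 of the 135 (14.1%). For AT1G67860 and AT1G10380 this is an order among signals that cannot be told from background. Of the 135 lower genes, 37 had an apl mean under the 25th percentile of every array. Over all 9045 pairs of lower genes the median r of deviations was 0.45, with quartiles of -0.05 and 0.78, and over all 8372 pairs of measured direct neighbours of any kind it was 0.07. Of the 134 other lower genes, 48 had an r above 0.9 with AT1G11490, and AT5G01480 on chromosome 5 had a higher one, at 0.999, than its direct neighbour. Of 5 xylem markers 3 were measured, IRX10, IRX15 and IRX15-L, and within apl their summed signal on the log2 scale was also highest in replicate 2, at 12.3, and lowest in replicate 3, at 10.6, against 12.5 to 13.2 in wildtype. In wildtype the order was not that of the pair: the sum was 12.5, 13.0 and 13.2 in replicates 1, 2 and 3, highest in replicate 3, where AT1G11490 and AT1G11500 were lowest. The phloem peptide genes CLE41 and CLE44, 2 of 5 phloem markers, summed to 11.4 to 11.7 in wildtype and 12.0 to 12.2 in apl. SWEET11, a sucrose exporter gene placed in the companion cell list, lay at 7.00 to 10.1 in wildtype and 10.2 to 11.7 in apl. SUC2, the other gene of that list, was not measured, so no companion cell level is read here. The part of such cell types in these differences was not tested.

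By a measure that includes the size of the fall, the genes most alike in pattern were not the neighbours. Likeness was taken as the root mean square difference over the 6 arrays, after subtracting each gene's wildtype mean. By this measure AT1G67790 (0.207 log2 units) and AT5G45320 (0.214) were nearest to AT1G11490, and AT5G11620 (0.0705) and AT5G39471 (0.145) to AT1G11500. AT1G64370 (0.289) and AT1G23130 (0.384) were nearest to AT1G67860, AT4G00780 (0.472) and AT3G12730 (0.527) to AT1G67870, and AT1G57670 (0.296) and AT2G31550 (0.299) to AT1G10380. Of the 10 genes 6 lie on other chromosomes. All 10 were called lower, which a measure that includes the fall of the member nearly fixes. AT1G11490 came only at rank 58 in likeness to AT1G11500, with falls of unequal size, and AT1G67870 at rank 9 to AT1G67860. By the r of deviations, which leaves out the fall, AT1G11490 and AT1G11500 each ranked 2 of 134 for the other. By that r, AT1G67870 ranked 9 for AT1G67860, and AT1G67860 ranked 7 for AT1G67870.

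Pairs of direct neighbours that were both called lower were few in the genome. There were 3 among 8372 measured pairs: AT1G11490 with AT1G11500, the GDSL-type lipase genes AT2G31540 with AT2G31550, and AT2G32870 with AT2G32880. The r of deviations was -0.09 in the lipase pair and 0.92 in the last. Of 158 measured places directly beside a lower gene, 6 held a lower gene (3.80%). Of 146 places 2 steps away, 6 did (4.11%), where 0.816% of all named genes were lower. A gene at that distance from 2 lower genes fills 2 places. At 3, 4, 8 and 10 steps the share was 1.49%, 1.67%, 1.41% and 1.49%, from 1 pair each, and at 5, 6, 7 and 9 steps it was 0 of 122, 0 of 126, 0 of 142 and 0 of 133, so the shares did not fall steadily with distance. These shares rest on 3 pairs each at 1 and 2 steps, of which 1 and 2 pairs hold genes described here, so they are a description of these data. The number of adjacent pairs was 0 without apl replicate 1, wildtype replicate 1 or wildtype replicate 2, 1 without wildtype replicate 3 and 8 without apl replicate 2. It was 10 with the replicate block, of which 2 are formed by AT1G67865 with AT1G67860 and with AT1G67870. The block also called more named genes lower, 225 (1.36%) against 135 (0.816%).

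**Figure D4:**
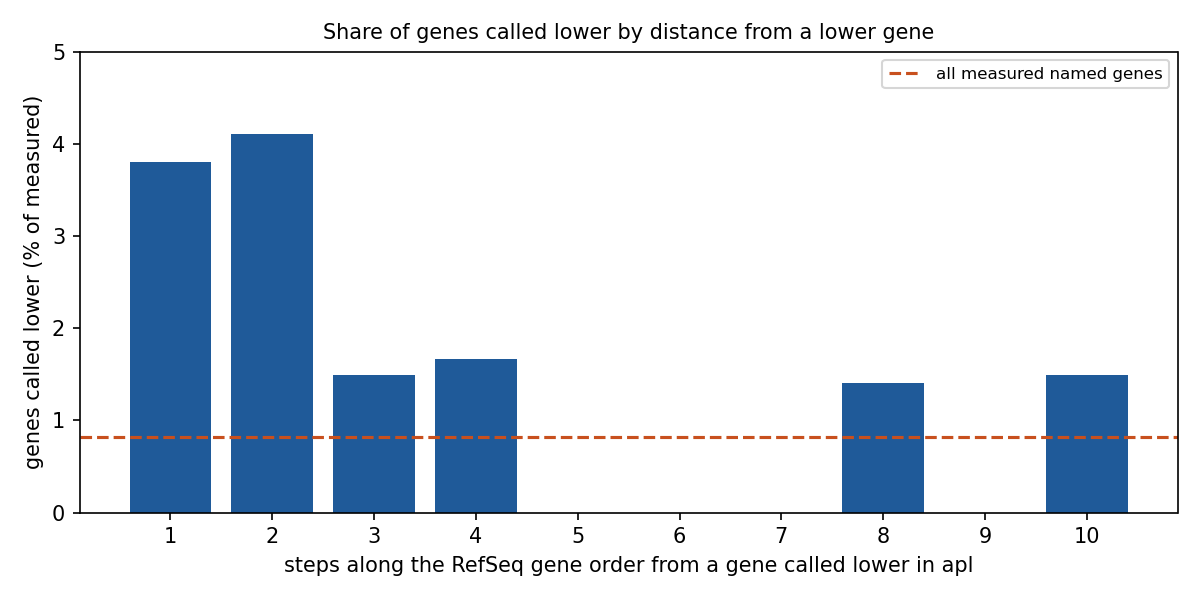
Percentage of measured genes called lower in apl (y axis, limma adjusted p under 0.05) at 1 to 10 steps along the RefSeq gene order from a gene called lower (x axis). A gene at that distance from 2 lower genes is counted for each. The dashed line is the 0.816% of all 16541 named genes. The bars at 1 and 2 steps, 3.80% and 4.11%, stand above the line and rest on 3 pairs of genes each.

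Chromosome 1, which carries all 5 genes, held 25.9% of the measured genes and 28.9% of the lower ones, 39 of 135. Its share of lower genes, 0.911%, was close to the 0.738% to 0.839% of the other 4 chromosomes.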

How the data were processed

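The deposited values are log2 signals that the authors made with RMA, per the submitters' processing notes, with no version and no statement of how arrays were grouped in that step. No scaling was added. The moderated linear model of limma 3.58.1 (R 4.3.3) compared the groups over all 38408 probe sets. The test was two-sided, with Benjamini-Hochberg adjustment and a threshold of 0.05. The fit was tried on simulated data in which the arrays vary independently, unlike the same-numbered arrays here. That trial therefore does not show how the p-values behave with paired arrays. The number of arrays limits the precision, and RMA compresses differences of dim transcripts, so folds are of signal.

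Probe sets were named from the platform annotation: 16722 had 1 gene, 759 several and 20927 none. Of the first, 16715 matched the RefSeq table of assembly TAIR10.1 by gene ID or symbol, which gave 16541 genes, with the brightest probe set used for each. That table was used only for names and gene order. Gene and probe sequences were not used here, so likeness between the genes' sequences was not examined.

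Genes named are the 5 members, the nearest measured gene on each side and any called among 5 per side, the 2 genes most alike in pattern per member, and further pairs of neighbours called lower. AT1G67865, NTL and AT1G11560, and other genes named in passing, were chosen after their values were seen. The members and lists were chosen with earlier results of these data known. The labels do not say that replicates were separate cultures, so the spread behind the p-values may be technical only. The 3 same-numbered pairs correlated in their deviations from group means at 0.40 to 0.45, and other pairs of opposite group at -0.29 to -0.16, so the number was taken to pair the arrays, from the data and not the labels. Between same-numbered arrays 740 to 940 probe sets had exactly equal values, and between arrays of other numbers, or of one group, 0 to 2, so the pairing may lie in the processing. Alternatives were the replicate block, quantile normalization, median centring, a filter on probe sets under the 25th percentile, a variance trend with robust prior, leaving out each array and, for pairs, another definition of neighbours. Figures were drawn with matplotlib 3.10.9.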

Additional observations from a re-analysis of the deposited data

How the results depend on the processing

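The alternative fits for the adjacent pairs were chosen after seeing the data. All 5 members kept their direction under all 11 alternatives, and their calls under the 5 that keep every array. With 1 array left out 2 to 5 members were called, and 0 to 3 flanking genes, which with fewer arrays also follows from the smaller number of samples. Lower and higher calls over all probe sets, 202 and 30, became 340 and 81 with the replicate block, 314 and 98 with the variance trend, and 20 to 308 and 1 to 22 without 1 array; higher calls became 61 without dim probe sets. The 3 adjacent pairs became 10 with the replicate block, 6 with quantile normalization, 8 with median centring, 5 without dim probe sets, 13 with the variance trend and 0 to 8 without 1 array; the cause was not tested. With neighbours taken among measured named genes only there were 4. The replicate block ended the call of AT2G32870 (adjusted p 0.0679, limma) and brought calls of AT1G67865 and AT1G11560; it changed no other call of the genes named by rule. Uncalled values near 0 turned sign without 1 array: AT1G11480 ranged from -0.14 to 0.0094, AT1G11510 from -0.51 to 0.052 and AT1G67880 from -0.11 to 0.26. The planned comparison with protein relatives and the promoter motif search were not run, since they need sequences. Signals under about the 25th percentile limit what can be said of apl levels for AT1G11490, AT1G67860 and AT1G10380, and for AT1G11500 in apl replicate 3.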

Other observations

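The replicate block called 225 of 16541 named genes lower (1.36%), against 135 (0.816%) without it. The pairing of arrays that it uses may lie in the processing. With the replicate block, 10 pairs of direct neighbours were both called lower, of which 8 were not so without it. Apart from the 2 pairs formed by AT1G67865 they were AT1G23120 with AT1G23130, AT1G76220 with AT1G76230, AT2G31550 with AT2G31560, AT2G31940 with AT2G31945, AT2G34530 with AT2G34540 and AT5G45520 with AT5G45530, all chosen for naming once their values were known. In the pair AT2G34530 and AT2G34540 both differences were large, at -5.16 and -3.85 on the log2 scale, as in AT5G45520 and AT5G45530, at -5.75 and -4.33. In AT1G23120 and AT1G23130 they were unequal, at -1.52 and -5.26.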
